A study of Mus musculus with 11 samples.

Results

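The renal cortex of 5 old floxed control mice, one RNA-Seq library a mouse, is described here across all genes, without a comparison of genotypes. The members were every library labelled as a floxed control, namely S2152, S7601, S7762, S2582 and S2578, which are 5 of the 11 libraries of the series. The other 6 come from Cpt1aCKO mice, in which Cpt1a was deleted in renal tubules by Pax8-rTTA;tetO-Cre. All mice of both groups were male, of a mixed background, were given doxycycline for 3 weeks at an age of 5 to 8 weeks, and were aged 2 years at collection. Cpt1a encodes the carnitine palmitoyltransferase that admits long-chain fatty acids to mitochondria, and the floxed control mice carry its floxed allele. No source used here says whether the controls carried Pax8-rTTA or tetO-Cre alone. The labels give the tissue as kidney, and the study's methods give it as cortex.

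Most of the renal cortex is proximal tubule, which reclaims filtered phosphate, glucose, amino acids and small proteins and burns fatty acids to do so. Further along the nephron, the thick ascending limb and distal convoluted tubule recover salt, the connecting tubule handles calcium, and the collecting duct adjusts water, potassium and acid. In mice, many proximal tubule genes differ between males and females under the control of androgens, and lymphocytes and plasma cells gather in the kidney with age. Bulk RNA-Seq mixes all of these cells, so that fewer cells of a type and less RNA in each cell cannot be told apart.

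The 5 libraries held 39628721 to 56241595 counted reads, S2152 having the fewest. Levels between libraries are given as counts per 1000000 (CPM) after TMM scaling, which corrects for differences in library composition, and 5 values in a sentence are always in the order S2152, S7601, S7762, S2582, S2578. Levels of different genes are compared per kilobase of exon, scaled to a sum of 1000000 (TPM). The part that a gene gives to a CPM sum is by reads, without length. A mean of at least 1 CPM, about 49.9 reads a library, was reached by 13772 of 53801 listed genes, and 12625 of these were protein coding. S2152 stood apart in that 30253 genes had at least 1 read in it, whereas the other 4 libraries had 24909 to 25886 such genes from more reads. Cpt1a itself was at 437, 433, 412, 548 and 503 CPM, so that the floxed gene was read in every control mouse.

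A few tubule genes dominated the cortex. The 10 genes with most reads took 10.01% ± 0.274 (SD, n = 5) of all counted reads and the 100 with most took 24.5% ± 0.411, while 631 to 683 genes were needed to reach 50% of the reads. Per length, Gpx3 was the most abundant gene at 56350.3 ± 3514 TPM (SD, n = 5). Gpx3 encodes the secreted glutathione peroxidase of plasma, which is made in the proximal tubule. Its values in the libraries were 53351, 56396, 61330.1, 57940.1 and 52735 TPM, so that the 5 mice lay close together. Kap, the kidney androgen-regulated protein, followed at 32514 ± 6227 TPM. Here the mice did not lie close: Kap stood at 34842, 37563, 26859.6, 24916 and 38386 TPM, with S7762 and S2582 below the other 3.

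The Kap gene lies on the minus strand of chromosome 6. Its promoter window, taken from RefSeq on GRCm38.p6 (chr6:133853618-133853917, minus strand, 250 bases before to 50 after the annotated start), is shown because Kap was the second most abundant gene and one whose level differed between mice. Capitals mark TATAAA, the letters of a TATA box, which start 31 bases before the annotated start. These letters, on either strand, occur in 13.6% of the 32851 promoter windows of the same length and in 6 of the 16 windows that could be matched to the 20 genes highest per length, a description of letters only.
Kap: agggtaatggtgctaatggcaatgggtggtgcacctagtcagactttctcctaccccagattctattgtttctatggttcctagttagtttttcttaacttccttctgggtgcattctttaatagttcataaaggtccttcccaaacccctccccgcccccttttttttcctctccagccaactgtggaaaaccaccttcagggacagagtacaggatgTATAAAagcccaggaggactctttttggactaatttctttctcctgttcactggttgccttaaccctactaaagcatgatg

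Behind Gpx3 and Kap, the ranking per length held genes of antioxidant defence, sugar and lipid handling, transport, iron storage and respiration. Gpx1, the cytosolic glutathione peroxidase, was at 10794 ± 1048 TPM. Miox, which opens the ring of myo-inositol, was at 7019.6 ± 474 TPM, and Slc34a1, the main phosphate transporter of the proximal tubule, at 5637 ± 417 TPM. Slc27a2, a fatty acid transporter and acyl-CoA synthetase, was at 3958 ± 306 TPM. Ferritin was represented by Fth1 at 5587 ± 129.7 TPM and Ftl1 at 3709.6 ± 244 TPM, and the respiratory chain and ATP synthase by Cox8a, Cox6a1 and Atp5b. Atp5b had the smallest spread among these 20 genes, at 3469.6 ± 35.2 TPM.

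Other members of the 20 belonged to the distal nephron or differed between mice. S100g, the small calcium-binding protein calbindin-D9k, was at 5446, 5233, 9353, 7364 and 5127 TPM, and Klk1, tissue kallikrein, at 4425, 4476, 6659, 4954 and 3968 TPM. Both are genes of the connecting tubule, and both were highest in S7762. Cyp4b1, a cytochrome P450, was lowest in the same mouse, at 8588, 7815, 5006, 8074 and 7395 TPM. Further genes were Ldhb, a lactate dehydrogenase subunit, Igfbp7, a secreted binding protein, the mitochondrial ribosomal RNA mt-Rnr2, and the annotated microRNA genes Gm23935 and Gm24270. The last pair have 57 bases of exon each, so that their level per length rests on 0.0435% and 0.00710% of reads, and by reads they ranked 341 and 2841. Ranked by reads alone, 11 of the 20 genes remained among the first 20, and 17 remained when the longest transcript was used as the length.

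**Figure D1:**
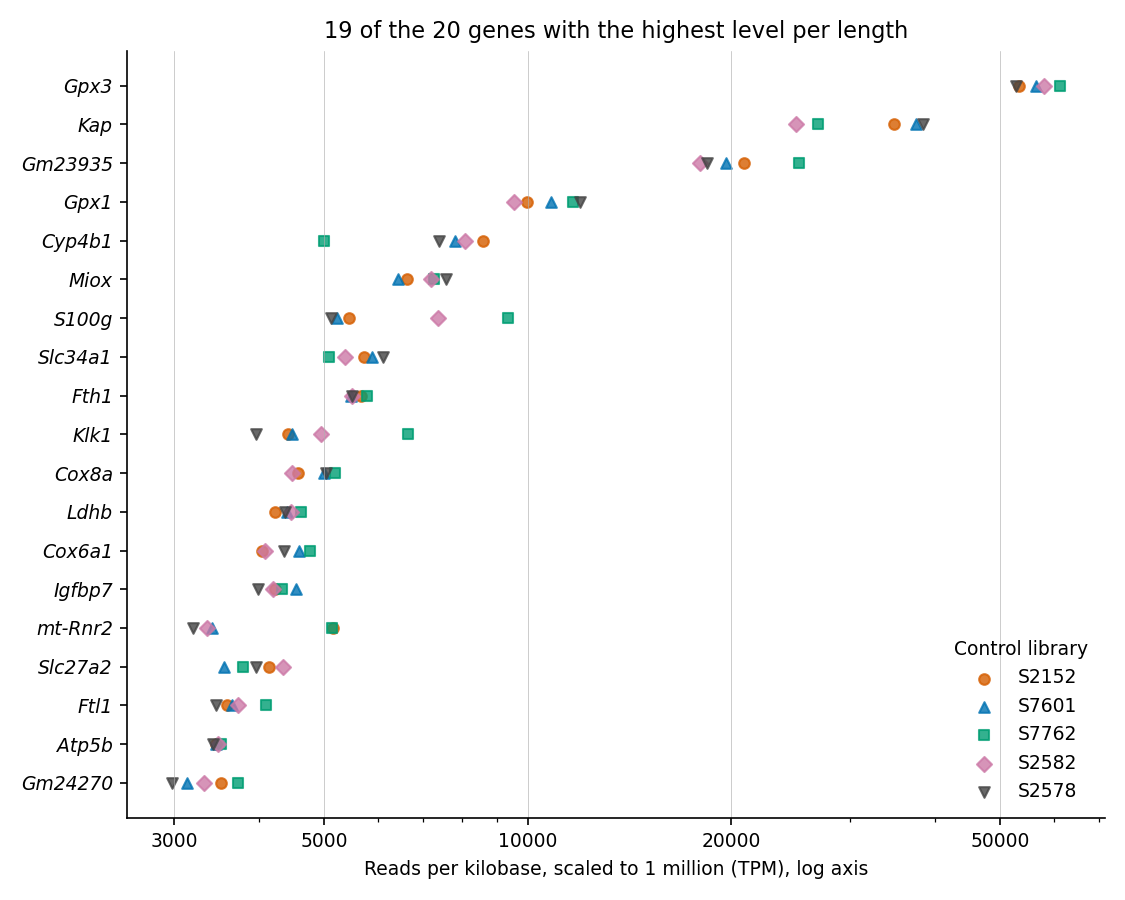
Level per length (TPM, log axis) of 19 of the 20 most abundant genes, ranked by mean, with one point for each of the 5 control libraries. Gpx3 lies between 52735 and 61330 TPM, the points of Atp5b nearly coincide, and S7762 stands high for S100g and Klk1 and low for Cyp4b1.

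Per length, the markers common to all segments of the proximal tubule gave the largest sum of the segment lists, 72052 TPM. With the separate lists of its S1, S2 and S3 segments set aside, these were followed by the connecting tubule at 11789 TPM, the thick ascending limb at 4143 TPM and principal cells at 2336 TPM. The lists differ in their number of genes, and single genes give much of a sum. S100g and Klk1, at 6505 and 4896 TPM, are in the connecting tubule list, and Kap, at 32514 TPM, in the proximal tubule list. The order of the sums is therefore not an order of segment size. The 15 common proximal tubule markers summed to 51931, 55519.8, 51007, 49367 and 57928 CPM, a spread of 0.0657 as a coefficient of variation (CV, the SD divided by the mean), and 0 of the 15 had a CV above 0.5. Over all 13772 genes, 3.54% had a CV above 0.5, and the member counts that follow are to be read beside that share. S2152, S7601, S7762, S2582 and S2578 were highest in 16.4%, 21.3%, 20.3%, 22.2% and 19.9% of these genes and lowest in 29.3%, 18.8%, 19.6%, 15.2% and 17.03%, so that S2152 was the lowest library more often than any other. The 10 markers of the first segment, S1, which takes up glucose and amino acids, summed to 3503 to 4265 CPM. Among them Slc5a2, the glucose transporter SGLT2, was at 456, 592, 465, 466 and 656 CPM and Gatm, the first enzyme of creatine synthesis, at 1232, 1633, 1225, 1137 and 1609.8 CPM. The 6 markers of S2 summed to 4598 to 5512 CPM. They are led by the urate transporter Slc22a12 and the organic anion transporters Slc22a6 and Slc22a8. Slc22a12 was lowest in S7762, at 857, 936, 594, 960.4 and 887 CPM.

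The last proximal segment, S3, varied far more. Its 7 markers summed to 2092, 2104, 1012, 1537 and 2424 CPM, with S7762 lowest and S2582 next. Slc7a13, an apical cystine and acidic amino acid transporter of S3, followed that order, at 682, 587, 210.0, 454 and 679 CPM. So did Atp11a, a phospholipid flippase, at 685, 721, 282, 578 and 718 CPM. Cyp7b1, an oxysterol hydroxylase, was lowest in S2582 and highest in S2578, at 180.3, 227, 125, 85.9 and 405 CPM. Slc22a13, another urate transporter of the list, did not share the pattern, at 149.8, 129, 171, 145 and 167 CPM. The CV of the S3 sum was 0.305, and 0.182 without S7762. Slc7a13, Cyp7b1, Slc22a30 and Acsm3 of this list also belong to the list of male-biased genes described below.

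The salt-recovering segments were even between the mice. The 7 markers of the thick ascending limb summed to 5269 to 7081 CPM. Umod, which encodes uromodulin, a glycoprotein secreted into urine, was at 2279.8, 2358, 2442, 2739 and 2429.8 CPM, and Slc12a1, the furosemide-sensitive cotransporter NKCC2, at 1296, 1822, 2034, 2057 and 1741 CPM. S2152 was lowest for both. The distal convoluted tubule list of 5 genes summed to 759 to 983 CPM, with Slc12a3, the thiazide-sensitive cotransporter, at 841, 619, 802, 824 and 731 CPM. The macula densa list had none of its 3 genes, Ptgs2, Nos1 and Pappa2, at 1 CPM, and summed to 1.43 to 4.13 CPM.

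The summed levels of the connecting tubule and principal cell lists were each raised in a single mouse. The CV of the sum was 0.247 and 0.259 for these lists and 0.140 for intercalated cells. The connecting tubule list of 5 genes was at 3174, 3576, 5484, 3866 and 3199 CPM, and 4 of the 5 genes were highest in S7762 (20.3% of all genes were), among them Calb1, the calcium buffer calbindin-D28k, at 523, 720.4, 929, 621 and 581 CPM. Without S7762 the CV of this sum was 0.091, against 0.247 with it. The principal cell list of 9 genes was at 1089, 2132, 1429, 1361 and 1430.3 CPM, highest in S7601. There, 5 of the 9 genes were highest (21.3% of all genes were). Aqp2 alone gave 1303 CPM of the sum in S7601, and the median CV of the 8 genes at 1 CPM was 0.137. Aqp2, the water channel set by vasopressin, was at 496, 1303, 719.9, 664 and 749.8 CPM, and Fxyd4, a sodium pump regulator of the collecting duct, at 53.3, 119, 81.6, 67.2 and 88.6 CPM. Intercalated cells, which secrete acid or base, were highest in S2582: their 9 markers summed to 484, 462, 522, 637 and 468 CPM. Slc26a4, the chloride and bicarbonate exchanger pendrin, was at 127, 129, 144, 196 and 122 CPM.

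Genes of the medulla were read at low levels in every library and least in S2152. The 5 markers of thin limb and inner medulla summed to 35.8, 139.8, 133, 117 and 118 CPM. Slc14a2, the urea transporter of the inner medullary collecting duct and thin descending limb, was at 16.03, 92.1, 92.6, 80.1 and 81.2 CPM. The value of S2152 was thus far from the other 4, and without it the CV of the sum was 0.088, against 0.385. No source used here gives the depth to which each piece of cortex was cut, and its part in these values was not tested.

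**Figure D2:**
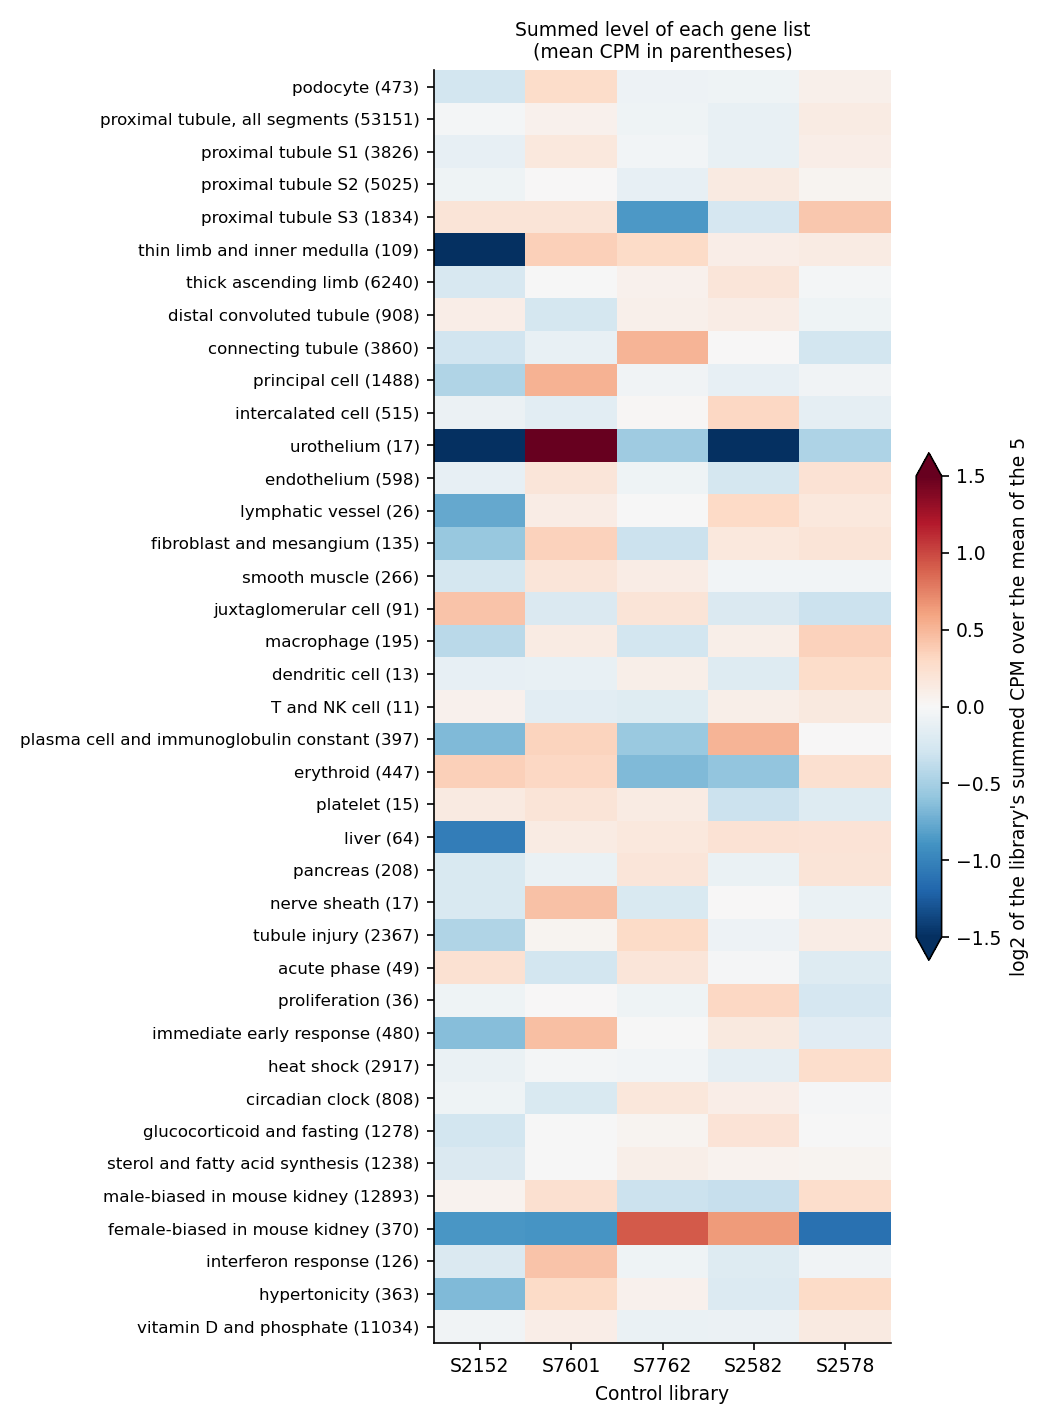
Summed CPM of each gene list with a mean of at least 5 CPM (rows, mean in parentheses) in each control library (columns), as log2 of the library over the mean of the 5; colours end at 1.5 in both directions. The urothelium list is high in S7601, the S3 and erythroid lists are low in S7762, and the thin limb, liver and hypertonicity lists are low in S2152.

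Glomerular and vascular genes were present in every library, and the CV of the sum was 0.144 for both the podocyte and the endothelial list. The 14 podocyte markers, all at 1 CPM or above, summed to 391, 574, 449.7, 453 and 499.9 CPM. Among them Podxl, the podocyte sialoprotein podocalyxin, was at 86.3, 121, 114, 104 and 111 CPM. The 14 endothelial markers summed to 497 to 698 CPM, led by Plvap, a diaphragm protein of fenestrated capillaries, at 165, 233, 193, 158 and 251 CPM. None of the genes of either list had a CV above 0.5. Ren1, renin of the juxtaglomerular cells, was at 120.0, 76.4, 101, 76.2 and 70.7 CPM, highest in S2152. The smooth muscle list summed to 222 to 302 CPM.

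Per length, fibroblast and mesangial genes summed to 49.4 TPM, while endothelial genes summed to 468 TPM. The fibroblast list's 10 markers summed to 91.1, 171, 108, 150.1 and 155 CPM, with S2152 lowest, as it was in 29.3% of all genes. Col1a1, a chain of type I collagen, was at 5.59, 15.8, 8.20, 13.6 and 18.4 CPM, and Dcn, the matrix proteoglycan decorin, at 16.5, 34.4, 25.9, 30.8 and 22.7 CPM. S2152 was lowest for both. The lymphatic vessel list summed to 15.2 to 31.9 CPM, but Lyve1, Mmrn1 and Ccl21a, 3 of its 6 genes, stayed under 1 CPM.

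Markers of adrenal, fat and muscle tissue were nearly silent, while those of liver, nerve sheath and platelets were read at low levels. The sums over the 5 libraries were 1.30 to 2.82 CPM for 6 adrenal cortex genes, 0.941 to 1.99 CPM for 9 adipocyte genes and 1.52 to 3.37 CPM for 7 skeletal muscle genes. The pancreas list was at 178 to 239 CPM through Cela1 alone, an elastase gene, while the 4 other pancreas genes had a sum near 0. The 5 nerve sheath genes summed to 14.5 to 23.03 CPM, the 5 platelet genes to 12.3 to 17.5 CPM and the 7 liver genes to 31.2 to 74.3 CPM. Of the liver list, Ttr, which encodes transthyretin, was at 1.13, 28, 38.5, 34.1 and 45 CPM, with S2152 far below the rest. Alb, albumin, was at 10.5, 14.5, 14.4, 16 and 7.43 CPM, and S2152 did not stand out in it. Hemoglobin marks blood left in the tissue: the 6 erythroid genes summed to 571, 556, 284, 297 and 529.5 CPM, and S7762 and S2582 held about the same low amount. Hba-a1 and Hba-a2, and likewise Hbb-bs and Hbb-bt, are near copies of each other, so only their sum is given.

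Among the immune lists, the 15 plasma cell and immunoglobulin constant genes had the largest sum per length, 1142 TPM. Macrophage genes summed to 303 TPM, T and NK cell genes to 17.8 TPM and B cell genes to 5.39 TPM. These lists also differ in their number of genes, so the order of the sums is not an order of cell number. The 14 macrophage markers summed to 147, 211, 161, 207 and 248 CPM, lowest in S2152 and highest in S2578, where 9 of the 14 had their highest value (19.9% of all genes did). Lyz2, lysozyme, was at 32, 65.6, 36.9, 72.3 and 80.7 CPM, C1qb, a chain of complement C1q, at 20.4, 27.6, 23.2, 21.6 and 32.03 CPM, and Csf1r, the receptor on which macrophages depend, at 45.2, 51.4, 48.7, 52.5 and 64.3 CPM. The 8 dendritic cell markers summed to 11.1 to 15.4 CPM.

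T, NK and B cell transcripts were scarce. Only 2 of 20 T and NK markers reached a mean of 1 CPM, and the list summed to 11.4, 9.72, 9.60, 11.6 and 12.04 CPM. Trbc2, a T cell receptor constant gene, was at 0.819, 0.383, 0.524, 1.06 and 1.16 CPM. The 9 B cell markers summed to 2.89, 3.84, 5.95, 9.04 and 3.19 CPM, highest in S2582. Cd79a, a signalling chain of the B cell receptor, was at 0.217, 0.746, 0.377, 1.97 and 0.745 CPM, also highest in S2582. Cd79b, the member of this list with the highest level, was at 0.843, 1.68, 1.68, 1.67 and 1.06 CPM and was not highest in S2582. Cxcl13, the chemokine that draws B cells into follicles, was at 0.482, 2.39, 4.82, 2.60 and 3.80 CPM, and Ltb, lymphotoxin beta, at 1.13, 1.17, 0.629, 2.82 and 0.784 CPM. Neutrophil markers summed to 1.24 to 3.69 CPM over 10 genes and mast cell markers to 0 to 0.265 CPM over 5 genes.

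Immunoglobulin transcripts were the main sign of the B lineage, and they set the mice apart. All immunoglobulin genes together were at 292, 639, 329, 717 and 476 CPM. Of the 41 at a mean of 1 CPM or more, 32 had a CV above 0.5 (78.0%, beside 3.54% over all genes). Igkc, the kappa light chain constant gene shared by most mouse antibodies, was at 100.2, 207, 113, 223 and 153 CPM, within a factor of 2.23.

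The heavy chain classes were divided differently in each mouse. Ighm, the constant gene of IgM, was at 6.0, 52.8, 39.2, 219.7 and 61.96 CPM, 36.6-fold higher in S2582 than in S2152. Igha, the constant gene of IgA, ran the other way in S2582, at 114, 136, 72.5, 27.7 and 125 CPM. Ighg2c was at 3.83, 46.6, 11.5, 19.6 and 14.03 CPM, highest in S7601, and Ighg1 at 0.241, 3.60, 2.56, 6.41 and 0.647 CPM. Per length, Ighm stood at 8.99, 73.1, 53.8, 323 and 85.6 TPM and Igha at 121, 133, 70.4, 28.8 and 122 TPM, so that IgM led in S2582, where the B cell list was also highest, and IgA led in the other 4 libraries. Jchain, which joins IgM and IgA into polymers, was at 18.4, 30.8, 16.4, 28.3 and 30.8 CPM. The lambda constant gene Iglc1 at 2.51, 5.43, 6.21, 22.2 and 3.86 CPM and the lambda variable gene Iglv1 at 1.69, 5.26, 5.09, 18.5 and 3.47 CPM were both highest in S2582.

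**Figure D3:**
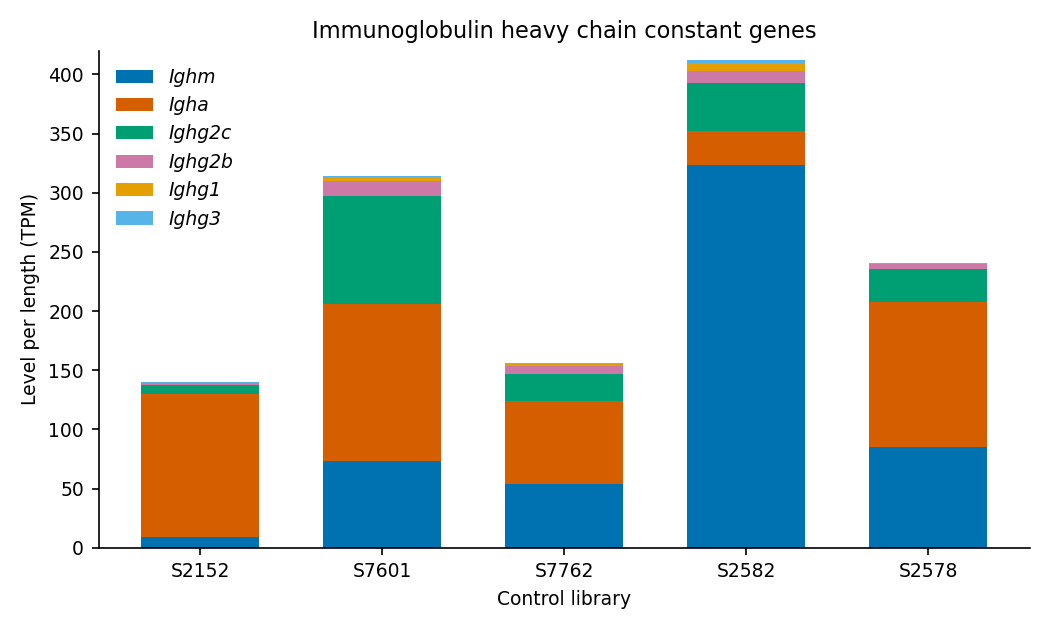
Stacked levels per length (TPM) of 6 immunoglobulin heavy chain constant genes in each control library. Ighm takes most of the bar in S2582 (323 TPM) and little in S2152 (8.99 TPM), while Igha is the largest share in the other 4.

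Some variable genes, of which each B cell clone uses one per chain, were high in one mouse and low in the others. Of the 28 variable genes at 1 CPM, 22 had a CV above 0.5. That share was 3.54% over all genes and 9.43% over genes between 1 and 10 CPM, the range in which the variable genes lie. The highest library stood apart from the others, by a gap over 0.71 of the whole range, in 9 of the 28 (3.14% of all genes). Some, such as Ighv1-75, reach a mean of 1 CPM only through 1 library. The mean filter thus favours such genes, here and among the 41 immunoglobulin genes above. Other variable genes were read at like levels in all mice, such as Igkv10-96 at 1.33, 2.22, 1.11, 2.45 and 2.21 CPM. Ighv1-75 was at 0, 8.82, 0, 0 and 0.0196 CPM, almost wholly in S7601. Ighv1-5 was at 0.193, 0.516, 0.126, 4.71 and 0.176 CPM, Igkv3-4 at 0.602, 0.230, 0.210, 6.11 and 0.647 CPM and Igkv4-59 at 0.940, 0.708, 1.07, 9.002 and 0.568 CPM, all highest in S2582. Igkv15-103 was highest in S2578, at 0.265, 0.383, 1.13, 0.727 and 5.82 CPM. Igkv6-17 was highest in S7601 but also read in S2582 and S2578, at 0.120, 15.5, 0.608, 4.73 and 4.998 CPM. Within a library, the variable gene with most reads took 5.40% of all variable gene reads in S2152 (Igkv1-110), 16.3% in S7601 (Igkv4-55), 7.76% in S7762 (Iglv1), 11.7% in S2582 (Iglv1) and 8.59% in S2578 (Igkv3-2). Variable genes resemble one another, and how the counting shared reads between them was not tested.

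Over all genes the 5 mice were much alike. The median CV of the 13772 genes was 0.130, 4813 of them (34.9%) had a CV under 0.1, and 487 (3.54%) had a CV above 0.5. The largest CV that 5 values allow is 2.24, reached when all reads are in one library. At 1 CPM read counting alone gives a CV of 0.142, and the share of genes with a CV above 0.5 was 9.43% between 1 and 10 CPM, 0.603% between 10 and 100 CPM and 0.416% between 100 and 1000 CPM. None of the 95 genes above 1000 CPM passed 0.5. The common biological CV, estimated by edgeR with read counting removed, was 0.208. Pairs of libraries differed by more than 2-fold in 470 genes (S7762 and S2582) to 860 genes (S2152 and S7601).

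Among the 100 genes with the highest CV, 50 were protein coding, 22 were immunoglobulin genes or pseudogenes, and 11 were unconfirmed transcripts that the annotation calls TEC. Of these 100, 41 were highest in S7601, 30 in S2152, 17 in S2582, 8 in S2578 and 4 in S7762. Over all 13772 genes S7601 was highest in 21.3% and S2152 in 16.4%. The highest library stood apart from the others, by a gap over 0.71 of the whole range, in 40 of the 100 genes, and in 3.14% of all 13772. The 100 genes were picked by CV on the same values, and a high CV favours a library far above the rest. The excess of such gaps is thus partly built in. When S7601 was left out, 59 of the 100 genes were still among the 100 with the highest CV, and when S2152 was left out, 72 were. The CV of 24 of the 100 fell under 0.5 once the right single mouse was left out.

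**Figure D4:**
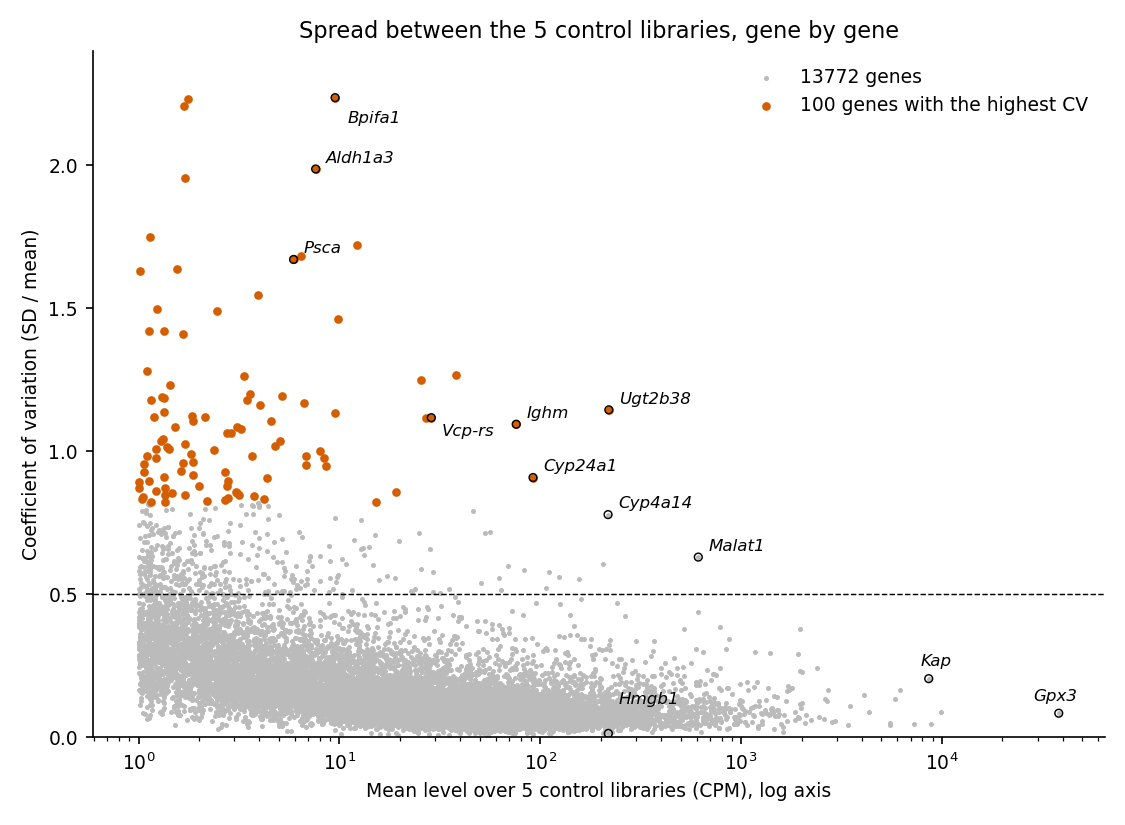
Coefficient of variation over the 5 control libraries against mean CPM (log axis) for 13772 genes, with the 100 highest in orange, the line at 0.5 dashed and 12 genes named. Spread is widest at low levels, and Ugt2b38, Ighm, Cyp24a1 and Cyp4a14 stand out at higher ones.

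Most listed genes that differ between male and female mouse kidneys set the same pair of these male mice, S7762 and S2582, apart from the other 3. The 11 genes of the male-biased list summed to 13403, 15193, 10287, 10133 and 15447 CPM, and the 4 of the female-biased list to 202, 199.8, 701, 576 and 171 CPM. Kap gave most of the first sum, and the 10 other genes summed to 4686, 5017, 2951, 3787 and 5028 CPM. S7762 and S2582 were the lowest pair in 10 of the 11 male-biased genes (8.23% of all genes) and the highest pair in 3 of the 4 female-biased genes (10.7% of all genes), a pair chosen for the count after its values were seen. S2582, lowest in the male-biased sum, was the single lowest library in 2 of the 11 genes, and S7762 was highest in 4 of the 4 female-biased genes (20.3% of all genes). Cyp4a14, a fatty acid omega-hydroxylase, was at 75.4, 111, 423, 382 and 97.3 CPM, Prlr, the prolactin receptor, at 68.1, 45.96, 152, 114 and 36.4 CPM, and Slc7a12, an amino acid transporter, at 53.1, 36.1, 117, 73.7 and 31.4 CPM. For all 3, S7762 and S2582 lay above the other mice.

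On the male-biased side, Slco1a1, an organic anion transporter, showed the widest range, at 81.6, 79.7, 2.64, 14.6 and 51.9 CPM, 30.9-fold between S2152 and S7762. Odc1, ornithine decarboxylase of polyamine synthesis, was at 549.8, 719, 350.5, 523 and 689 CPM. Cyp2e1, an ethanol-inducible cytochrome P450, moved less, at 2105, 2221, 1629.6, 1869.7 and 2001 CPM. Scd1, stearoyl-CoA desaturase, was at 87.6, 68.4, 195, 203 and 63.4 CPM, again highest in S7762 and S2582. The 12 genes of sterol and fatty acid synthesis, to which Scd1 belongs, were nevertheless even as a sum, at 1068 to 1320.2 CPM. The S3 and erythroid sums were lower in these mice as well. Slc7a13, Cyp7b1, Slc22a30 and Acsm3 are members of both the S3 and the male-biased list, so these sums are not independent. Hormone levels were not measured in these files.

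Among genes at 100 CPM or more, Ugt2b38 had the highest CV. It encodes a UDP-glucuronosyltransferase, an enzyme family that conjugates steroids and drugs for excretion. Ugt2b38 was at 0.217, 0.230, 189, 304 and 605 CPM, from 9.0 and 12 reads in S2152 and S7601 and 8997, 17141 and 30860.0 reads in the other 3. The gene was all but off in the first pair of mice and strongly read in the others, with nothing in between. Its neighbour Ugt2b37 was read in all 5, at 154, 146, 28.7, 55.8 and 172 CPM, with S7762 and S2582 lowest. Ugt2b5, a further copy, was at 2.10, 1.82, 1.70, 2.99 and 3.74 CPM.

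Ugt2b38 (chr5:87409942-87424203, minus strand) and Ugt2b37 (chr5:87240493-87254804, minus strand) are near copies in GENCODE M21. Their annotated transcripts were identical at 93.5% of 1888 aligned bases, so that reads from one can be assigned to the other where they are the same. The promoter windows, from RefSeq on GRCm38.p6, are shown because only one of this pair was off in any mouse. The first is chr5:87424154-87424453 and the second chr5:87254739-87255038, each 250 bases before to 50 after the annotated start on the minus strand. Capitals mark bases without an identical partner in the alignment of one window with the other: 274 of 286 aligned bases were identical, and 26 of the 300 bases of each window are in capitals. The runs of capitals at the outer ends have no partner because the 2 windows begin at different points of the shared sequence.
Ugt2b38: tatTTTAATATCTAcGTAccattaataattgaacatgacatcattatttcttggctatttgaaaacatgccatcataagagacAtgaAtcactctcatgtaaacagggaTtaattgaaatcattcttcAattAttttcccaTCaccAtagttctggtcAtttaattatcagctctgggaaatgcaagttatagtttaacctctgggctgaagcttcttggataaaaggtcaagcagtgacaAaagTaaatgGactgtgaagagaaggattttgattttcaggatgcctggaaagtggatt
Ugt2b37: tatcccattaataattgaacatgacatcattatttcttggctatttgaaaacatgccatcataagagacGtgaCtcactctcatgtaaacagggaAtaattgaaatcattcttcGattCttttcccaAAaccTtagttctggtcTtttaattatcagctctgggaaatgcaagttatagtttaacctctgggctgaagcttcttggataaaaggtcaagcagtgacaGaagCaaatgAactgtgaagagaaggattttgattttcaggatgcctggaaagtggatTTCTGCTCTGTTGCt

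**Figure D5:**
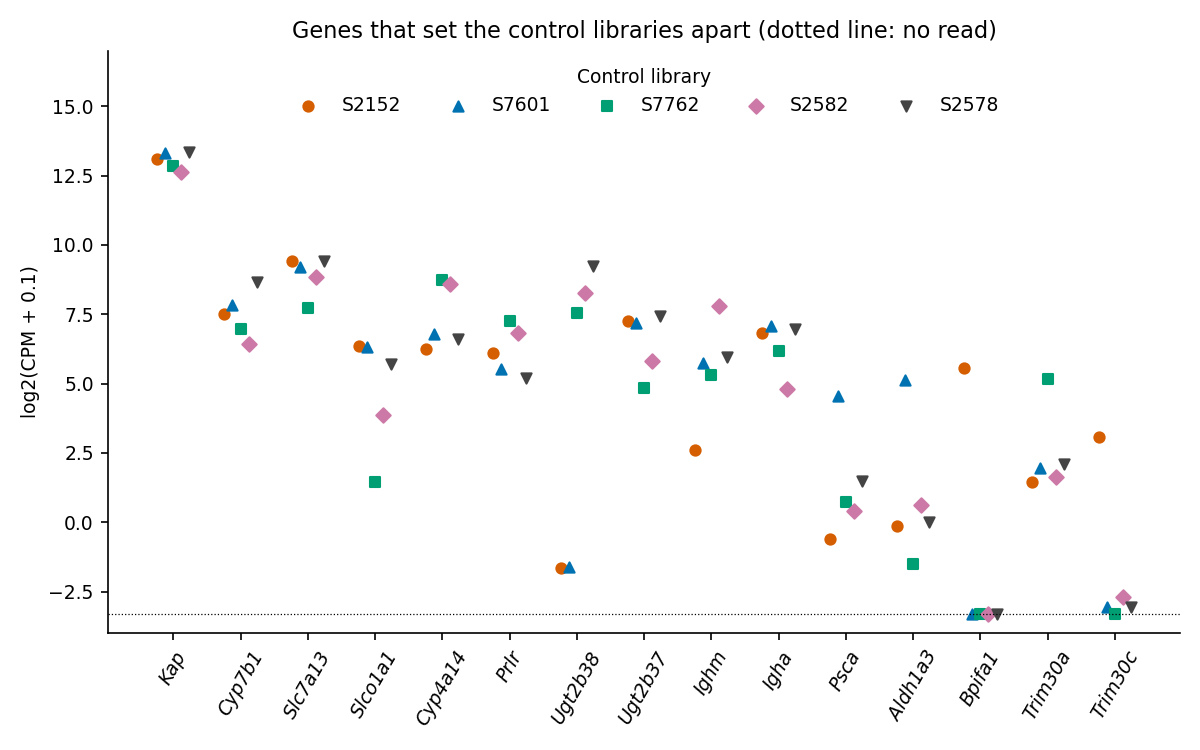
Levels of 15 genes as log2(CPM + 0.1) in the 5 control libraries; the dotted line marks 0 reads. Ugt2b38 is below 0 in S2152 and S7601, Slco1a1 is low and Cyp4a14 high in S7762 and S2582, and Psca, Aldh1a3, Bpifa1, Trim30a and Trim30c are each high in 1 library.

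S7601 was marked by genes of urothelium. The urothelium list of 7 genes was at 4.53, 51.3, 11.6, 4.36 and 12.2 CPM, with 6 of the 7 highest in S7601 (21.3% of all genes were) and 4 of the 4 at 1 CPM above a CV of 0.5. Psca, a surface protein of urothelium, was at 0.554, 23.5, 1.57, 1.22 and 2.69 CPM, and the uroplakin genes Upk1a and Upk3a, which build the plaques of the urothelial surface, at 1.52, 9.51, 3.94, 1.90 and 2.90 CPM and at 0.313, 7.61, 2.52, 0.585 and 2.74 CPM. Other genes among the 30 with the highest CV had the same highest library. Aldh1a3, a retinaldehyde dehydrogenase, was at 0.819, 34.7, 0.252, 1.44 and 0.902 CPM, Fcgbp, a mucin-like secreted protein, at 1.42, 49.6, 1.15, 4.06 and 4.74 CPM, and Sptssb, a small subunit of serine palmitoyltransferase, at 0, 7.69, 0.294, 0.177 and 0.392 CPM. The gasdermin genes Gsdmc2 and Gsdmc3 were also highest in S7601, at 3.54 and 4.67 CPM.

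The S7601 library was also highest in the principal cell list, in Aqp2 and in Akr1b3, aldose reductase, which makes sorbitol in cells under osmotic load. Akr1b3 was at 48.5, 142, 51.3, 40.5 and 64.8 CPM. Of the thin limb and inner medulla list, Slc14a2 was not raised in S7601 beyond the other mice, at 92.1 CPM. Sptssb, another member of that list, was at 7.69 CPM in S7601 and at most 0.392 CPM elsewhere. The sum of that list was highest in S7601, at 139.8 CPM, with S7762 next at 133 CPM. Without S7601 the CV of the urothelium sum was 0.529, against 1.17, and that of the principal cell sum 0.122, against 0.259. The interferon list of 16 genes was also highest in S7601, at 108, 169, 120.0, 110.4 and 121 CPM, with 13 of the 16 highest there (21.3% of all genes were). Ifit3, an interferon-induced antiviral gene, was at 6.48, 31.8, 26.2, 18.7 and 23.3 CPM. The amount of urothelium in each piece of tissue was not measured by other means, and its part in the other values was not tested.

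S2152 held transcripts with no reads in the other 4 libraries. Bpifa1, a secreted protein of airway epithelium, was at 47.6, 0, 0, 0 and 0 CPM, from 1975 reads and none elsewhere, which is at least 757-fold higher than a floor of 3 reads in any of the 4. Scgb3a2, another airway secretory gene, had 66 reads in S2152 and 0 in each of the others. Cyp2f2, a cytochrome P450 best known from airway club cells, was at 23.1, 4.28, 5.30, 4.98 and 4.41 CPM. All of these were highest in the same library. Bpifa1 had the highest CV of all genes at 1 CPM, whereas Scgb3a2 and Cyp2f2 were chosen for description after their values were seen.

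Nuclear and poorly annotated RNA was also raised in S2152. Malat1, a long noncoding RNA retained in the nucleus, was at 1202, 156, 658, 630.0 and 417 CPM, and Neat1, which builds nuclear paraspeckles, at 243, 62.2, 148, 229 and 113 CPM. The predicted genes Gm10800 and Gm10801 were at 120.4, 42.7, 9.81, 7.97 and 9.53 CPM and at 25.8, 3.17, 1.05, 1.17 and 1.06 CPM. The TEC class as a whole was at 743, 208, 382, 408 and 332 CPM, and 1407 olfactory receptor genes, the odorant receptors of the nose, summed to 38.9, 16.1, 11.8, 10.9 and 13.1 CPM. S2152 was highest in each of these and also had the fewest reads. BC024386, a processed transcript among the 10 most variable at 100 CPM or more, followed them, at 201, 50.9, 95.4, 92.5 and 93.9 CPM. No source used here gives RNA integrity, and its part in these values was not tested.

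Several genes were high in some mice and low in the others with little in between. Trim30a, an antiviral TRIM gene, was at 2.65, 3.83, 35.5, 2.98 and 4.19 CPM and its neighbour Trim30c at 8.34, 0.0191, 0, 0.0532 and 0.0196 CPM, each high in a different mouse. The X-linked processed pseudogene Vcp-rs was at 5.21, 65.9, 5.33, 61.6 and 5.37 CPM, high in S7601 and S2582. Gm15920, a processed pseudogene on chromosome 5, was at 3.35, 75.6, 5.56, 4.04 and 38.5 CPM, high in S7601 and S2578. Gm43305, on chromosome 14, followed the mice of Ugt2b38, at 1.06, 0.287, 46.2, 18.1 and 69.7 CPM. By a rule set after the values were seen, a highest value of at least 5 CPM and at least 20 times the lowest, 40 genes had a wide range, some of them graded between mice. Trim30a and Vcp-rs are not among these 40, and Slco1a1 is one of the graded genes. Pseudogenes share sequence with their source genes, and which copy the reads came from was not tested.

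Of the 100 genes with the highest CV, 4 lie on chromosome 17, and chromosome 6 holds the most, 20. All 4 were highest in S7601, as were 41 of the whole 100 and 129 of the 645 genes of chromosome 17 at 1 CPM. C4a, a complement C4 copy, was at 2.17, 14.8, 0.105, 0.992 and 1.69 CPM, D17H6S53E at 2.41, 14.4, 2.75, 2.62 and 3.04 CPM, H2-Q4, a class I histocompatibility gene, at 2.94, 9.28, 1.72, 2.99 and 1.78 CPM and Fndc1, a fibronectin domain gene, at 0.193, 3.63, 0.650, 1.49 and 0.627 CPM. The 45 H2 genes together were even, at 1354, 1246, 1333, 1450.4 and 1579 CPM. The mice were of a mixed background, and their genotypes at these loci were not analysed here.

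Lists that follow physiological state gave values for each mouse. The tubule injury list of 13 genes was led per length by Spp1, osteopontin, at 1215, 1767, 2058, 1669.9 and 1817 CPM and Clu, clusterin, at 427, 476, 696, 444 and 569 CPM. Havcr1, which encodes the injury marker KIM-1, was at 0.771, 6.52, 1.93, 2.39 and 8.21 CPM, highest in S2578 and S7601, and Lcn2, lipocalin 2, at 1.93, 5.68, 3.65, 3.21 and 7.70 CPM. Cdkn1a, the cell cycle inhibitor p21, was at 16.9, 43.5, 19.9, 17.3 and 25.8 CPM. Levels of Havcr1 thus differed 10.7-fold between mice and the sum of the list 1.67-fold, but Spp1 and Clu give most of that sum. Of the 10 genes of the list at a mean of 1 CPM, 3 had a CV above 0.5 (30%, beside 3.54% of all genes). The median CV of these 10 genes was 0.396. The proliferation list was low, at 30.4 to 44.98 CPM over 9 genes, and Top2a, a topoisomerase of dividing cells, was at 0.747, 0.784, 1.55, 3.28 and 1.10 CPM, highest in S2582.

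Among genes that respond quickly to handling or stress, the immediate early genes differed more between mice than the heat shock genes, with a CV of the sum of 0.266 against 0.115. The 12 immediate early genes summed to 308, 653, 479, 533 and 425 CPM, and 9 of the 12 were highest in S7601 (21.3% of all genes were). Fos, an AP-1 subunit, was at 7.33, 28.2, 3.61, 16.2 and 8.62 CPM and Dusp1, a phosphatase of MAP kinases, at 110.5, 242, 263, 205 and 166 CPM. Heat shock genes were highest in S2578, at 2731, 2860.5, 2833, 2661 and 3501 CPM over 10 genes, of which Hspa8, the constitutive Hsp70, gave most at 1859, 1863, 1995, 1873 and 2417 CPM. The 16 genes of the circadian clock summed to 690.5 to 909 CPM. Dbp, a clock output gene, was at 58.1, 38.3, 109, 80.9 and 63.5 CPM, and Npas2, a partner of BMAL1, at 7.78, 9.24, 2.01, 4.45 and 5.14 CPM, so that S7762 was highest for the first and lowest for the second. No source used here gives the hour of collection.

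Sgk1 and Hpd completed the 10 genes with the highest CV at 100 CPM or more. Sgk1, the kinase induced by aldosterone, was at 102, 211, 419, 243 and 234 CPM, and Hpd, an enzyme of tyrosine breakdown, at 136, 101, 309, 134 and 104 CPM, both highest in S7762, the mouse with the highest connecting tubule sum. Cyp24a1, which inactivates vitamin D, had a mean under 100 CPM, with 52.97, 78.2, 45.8, 239.6 and 43.7 CPM, 3.06-fold above the next mouse in S2582. Kl, the FGF23 coreceptor klotho, was even, at 663, 749, 618, 683 and 619.7 CPM. The 5 genes of the hypertonicity response, led per length by Slc5a3, the inositol transporter, summed to 230.5, 444, 381, 316 and 444 CPM, lowest in S2152.

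The steadiest genes at a mean of 10 CPM or more included genes that most cells use. Mto1, a mitochondrial tRNA-modifying enzyme, was at 35.2, 35.2, 34.99, 35.7 and 35.2 CPM, and Hmgb1, a chromatin protein, at 219.7, 215, 220.0, 222 and 215 CPM. The 10 lowest CVs lay between 0.00641 and 0.01395, and 9 of the 10 were under the CV that read counting alone gives at that depth.

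Most of the genes that varied most among the floxed controls, where they could be ranked, also varied in the other mice of the series. Of the 100 genes with the highest CV, 84 had a mean of at least 1 CPM over the 6 Cpt1aCKO libraries, and 79 of these 84 (94.0%) lay in the top 5.0% of genes by CV there. That count was 77 of 85 without the Cpt1aCKO library S7602, and the percentage for all genes at 1 CPM is 5.0 by construction. Genes under 1 CPM there were not ranked, among them Trim30c, Ighv1-75 and Ighv1-5, with means of 0.0668, 0.0948 and 0.475 CPM. Nor was the 5.0% matched for level. In the controls, a CV above 0.5 was more frequent between 1 and 10 CPM (9.43%) than at higher levels. The 94.0% therefore covers the ranked genes only and is not set against genes of like level. Ugt2b38 was read at 0.205, 0.231, 0.0952, 0.0902, 267 and 406 CPM in the Cpt1aCKO mice S2155, S2394, S2397, S7602, S7763 and S2577, so that the same division into off and on was seen there. Bpifa1 was at 0, 0, 0.0190, 0.0451, 28.9 and 31.4 CPM in the same mice, present in S7763 and S2577. Trim30a, by contrast, stayed between 2.46 and 5.39 CPM in all 6. No level was compared between the genotypes here.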

How the data were processed

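RNA-Seq was analysed from the renal cortex of 5 floxed control mice, each mouse being 1 library, with 6 Cpt1aCKO libraries used only to look at the spread of the same genes. The authors extracted RNA on columns with DNase, made stranded poly(A) libraries, aligned reads with STAR 2.7.3a and counted them with HTSeq. No source used here gives the version or strand setting of HTSeq, the genome build or the annotation. The values used were the raw read counts per gene as deposited by the authors. The deposited normalised values, fold changes, p-values and adjusted p-values of the authors' comparison were not used, nor were Cufflinks 2.2.1 values.

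Counts were scaled by TMM (edgeR 4.0.16 in R 4.3.3) and given as CPM. Of 53801 gene IDs, 53706 were found in GENCODE M21, which gave positions and the union of exons used as length for TPM. The spread was the CV over 5 libraries at a mean of at least 1 CPM. Ranking by CV was tried on simulated data, in which 194 of 200 genes given a biological CV of 1 were among the 200 highest. The other genes there had a median CV of 0.145. The ranking of genes with a biological CV under 1 was not tested. With 1 group there was no contrast and no test, so values measure only the spread between these mice. Depth was 39628721 to 56241595 reads a library, and read counting intervals and floors (3 reads) cover counting error only.

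The 47 gene lists and the members were chosen with earlier results of these data known; 1 listed gene had no row. The text names Cpt1a, the 20 genes highest per length, the 30 with the highest CV, the 10 with the highest CV at 100 CPM or more, the 10 with the lowest CV at 10 CPM or more, up to 4 members and the most variable one of each list, and members of the immunoglobulin, H2, Olfr, mitochondrial and ribosomal families. Genes outside this rule were chosen after their values were seen. Some genes that the rule names are not reported here. Alternatives were DESeq2 1.42.0 size factors, no TMM, other minimum levels, protein-coding genes only, other lengths, other measures of spread and leaving out each mouse. Sequences come from RefSeq on GRCm38.p6, and transcripts were aligned globally with Biopython 1.88.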

Additional observations from a re-analysis of the deposited data

Results flagged for a closer look

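With 5 values, a library was set down as standing apart when its gap to the nearest other library exceeded 0.71 of the whole range, which chance gives in about 1 of 20 sets. On either side this held for 686 of 13772 genes (4.98%), and for 35 of the 138 genes and 5 of the 47 lists looked at here, many of which were picked for their spread.

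S2152 had 30253 genes with a read. It was lowest in the thin limb and inner medulla list (35.8 CPM), the liver list (31.2 CPM) and Slc14a2 (16.03 CPM). It was highest in the olfactory receptor family (38.9 CPM), Bpifa1 (47.6 CPM), Scgb3a2 (1.59 CPM), Cyp2f2 (23.1 CPM), Gm10801 (25.8 CPM), Gm21738 (20.5 CPM) and Trim30c (8.34 CPM).

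S7601 was highest in the urothelium list (51.3 CPM), the interferon list (169 CPM), Akr1b3 (142 CPM), Aldh1a3 (34.7 CPM), Fcgbp (49.6 CPM), Psca (23.5 CPM), Sptssb (7.69 CPM), Gsdmc2 (3.54 CPM) and Gsdmc3 (4.67 CPM). The same library was highest in C4a (14.8 CPM), D17H6S53E (14.4 CPM), H2-Q4 (9.28 CPM), Hmga1b (3.997 CPM) and Ighv1-75 (8.82 CPM).

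S7762 was highest in Hpd (309 CPM), Klk1 (2770.4 CPM) and Trim30a (35.5 CPM), and lowest in Cyp4b1 (4363 CPM) and Slc22a12 (594 CPM). S2582 was highest in Cyp24a1 (239.6 CPM), Ighm (219.7 CPM), Iglc1 (22.2 CPM), Iglv1 (18.5 CPM), Ighv1-5 (4.71 CPM), Igkv3-4 (6.11 CPM), Igkv4-59 (9.002 CPM) and Ltb (2.82 CPM). S2578 was highest in the heat shock list (3500.6 CPM), Hspa8 (2417 CPM), Gm2606 (4.53 CPM) and Igkv15-103 (5.82 CPM).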

How the results depend on the processing

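DESeq2 size factors and no TMM left the counts and medians over all genes close to the values given, while the minimum level moved them. The median CV was 0.123 over protein-coding genes, 0.109 at a minimum of 5 CPM and 0.197 at 0.1 CPM, and 0.122 to 0.128 without 1 mouse. Genes with a CV above 0.5 numbered 314 among protein-coding genes, 106 at 5 CPM and 4646 at 0.1 CPM, and 414 to 539 without 1 mouse. The common biological CV was 0.188 over protein-coding genes, 0.163 at 5 CPM and 0.307 at 0.1 CPM. Of the 100 genes with the highest CV, 59 to 78 remained without 1 mouse (59 without S7601), 80 by edgeR's tagwise dispersion and 71 by the SD of log2 CPM. Of the 20 genes highest per length, 11 remained when ranked by reads. Lists whose sum had a CV above 0.25 numbered 19, and 12 to 20 without 1 mouse (12 without S2152), a count chosen after seeing the data. The CV of a named gene moved by less than its error in 136 of 138 genes with DESeq2 size factors and 131 of 138 without TMM, and that of a list sum in 47 and 45 of 47. It moved by more in 20 of 47 lists when the mean of log2 CPM replaced the sum, and, without 1 mouse, in 93 of 688 values for genes and 27 of 235 for lists. Each mouse decides several values, and at 1 CPM read counting limits the CV. No paired analysis was possible because a single group was described without a contrast, and the numbers within it follow accession order.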
